A study of Homo sapiens with 12 samples.

Results

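Condensins are ring-shaped protein machines that fold chromatin into compact mitotic chromosomes. Each is built on a pair of SMC ATPases, SMC2 and SMC4, which are shared by both complexes. Condensin I adds the kleisin NCAPH, which closes the ring, and the HEAT-repeat subunits NCAPD2 and NCAPG, while condensin II adds the matching set NCAPH2, NCAPD3 and NCAPG2. Condensin II is nuclear through the cell cycle and starts compaction in prophase, and condensin I reaches the chromosomes after the nuclear envelope breaks down. The transcripts of these 8 subunits were followed in H1299 cells, an established human line of non-small cell lung carcinoma that lacks p53. They are the 8 rows, of 59577 in the deposited gene table, whose gene name is one of the subunit symbols.

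The cells were held for 24 h in a three-gas incubator at 60% O2, 5% CO2 and 35% N2 (hyperoxia, n = 6) or kept at 21% O2, 5% CO2 and 74% N2 (normoxia, n = 6). The length of the normoxic culture is not stated in the labels. Total RNA of all 12 samples was sequenced in bulk, and both groups are the same cell line with no genetic change. Nothing in the labels ties a sample to a culture of its own. The p-values therefore measure the spread among the 6 samples of each group, part or all of which may be technical.

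The deposited levels are TPM, transcript abundances corrected for gene length and scaled to a common total. Levels of different genes can be compared as far as the gene lengths used are right, and the TPM method is not given. Each sample summed to between 996138 and 998797 TPM and held between 14275 and 14635 genes at 1 TPM or more. The read depth behind these values is unknown, because TPM does not retain it. The epithelial keratins KRT8 and KRT18 averaged 603 and 955 TPM in normoxia, and the mesenchymal filament VIM 3351 TPM. The lung adenocarcinoma markers NKX2-1 and NAPSA averaged 0.295 and 0.268 TPM, EPCAM 0.157 TPM and CDH1 0.040 TPM, and SFTPC was listed at 0 in all samples. The summed levels of the 5 leukocyte, 4 endothelial, 3 erythroid and 5 fibroblast markers reached at most 2.09 TPM in any sample. Normoxia replicates 1 to 3 and 4 to 6 were compared over the genes tested. Deviations from the group mean correlated at -0.34 to -0.16 between these sets and at -0.22 to 0.01 within them, 2 ranges that overlap. Deviations from a shared mean lean towards negative correlation by construction, so these values do not settle whether the sets differ.

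Short sequence matches were found in windows at annotated starts of 7 of the 8 condensin genes. CHR elements (cell cycle genes homology regions) are short DNA sequences bound by the MuvB core of the DREAM and MYB-MuvB complexes, which repress cell cycle genes in resting cells and activate them before mitosis. RefSeq promoter windows of 300 bases (GRCh38.p14, 250 before to 50 after each start) were found for 7 of the 8 genes, with 10 starts in all, and none was used for NCAPH2. TTTGAA or TTTAAA, on either strand, was found at 1 start of each of the 7 genes, that is in 7 of the 10 windows. The share was 24.0% of all 35116 windows in the table and 16.7% of the 14586 windows of genes tested here. The matches are printed because both complexes carry them; each line is the gene's own strand, 5′ to 3′, with the match in capitals, and TTCAAA is TTTGAA read from the other strand.
SMC2: ctcgcgccgaaaTTCAAAggaataaatagt
SMC4: gccgcactttttTTCAAAttagtggatccc
NCAPD2: cagccgttgagaTTTGAActcggtatttgt
NCAPG: tcgcgggaattaTTTGAAcgttcgagcggt
NCAPH: cgacgcgcgcgaTTTAAAaccagctcagga
NCAPD3: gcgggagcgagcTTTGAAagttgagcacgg
NCAPG2: gcgccggcgggtgcgTTTGAAtctggtccg

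These windows lie at chr9:104094294-104094323 (SMC2), chr3:160399563-160399592 (SMC4), chr12:6493945-6493974 (NCAPD2), chr4:17810932-17810961 (NCAPG) and chr2:96335786-96335815 (NCAPH), all on the plus strand. Those of NCAPD3 and NCAPG2 lie on the minus strand, at chr11:134223953-134223982 and chr7:158704755-158704784. GENCODE 29 annotates an untranslated exon of at least 1 transcript of the same gene in each. The SMC4 window also lies within the span of IFT80, which runs on the other strand. The match began 3 bases before the start in SMC2 and NCAPD3, 35 before in NCAPG, 75 before in SMC4 and 145 before in NCAPD2, and it began at base 33 of the transcript in NCAPH and base 36 in NCAPG2. SMC2, SMC4 and NCAPD3 each have another annotated start, whose window held no match.

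The CCAAT box, bound by the factor NF-Y and common beside CHR elements, was found on either strand in 3 of the 10 windows, each of another gene, against 34.6% of all windows. NCAPD2 had 4 of them, NCAPD3 had 2 and NCAPH had 1. The NCAPD2 boxes all read as ATTGG on the gene's strand and are printed because NCAPD2 is the subunit that fell most. NCAPG, with no box, also fell, and NCAPD3, with 2, did not pass. Whether the boxes bear on the fall was not tested, and the share of windows with several boxes is not given here. The NCAPD2 boxes began 199, 170, 70 and 30 bases before its start, within chr12:6493896-6494084. In the window of each box, too, GENCODE 29 annotates an untranslated exon of at least 1 NCAPD2 transcript.
NCAPD2 box at 199: cgctgtgATTGGccggccgc
NCAPD2 box at 170: cgtcgcgATTGGccgtcctg
NCAPD2 box at 70: gccggggATTGGccggattc
NCAPD2 box at 30: cttgctaATTGGtgcgtgtt

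An E2F site (TTTCCCGC, TTTCGCGC, TTTGCCGC or TTTGGCGC, either strand), the class of element used by G1 and S phase genes, was matched in NCAPD3 alone, 249 bases before one start. It was matched in 3.31% of all windows. These are letter matches and not measured binding.

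**Figure D1:**
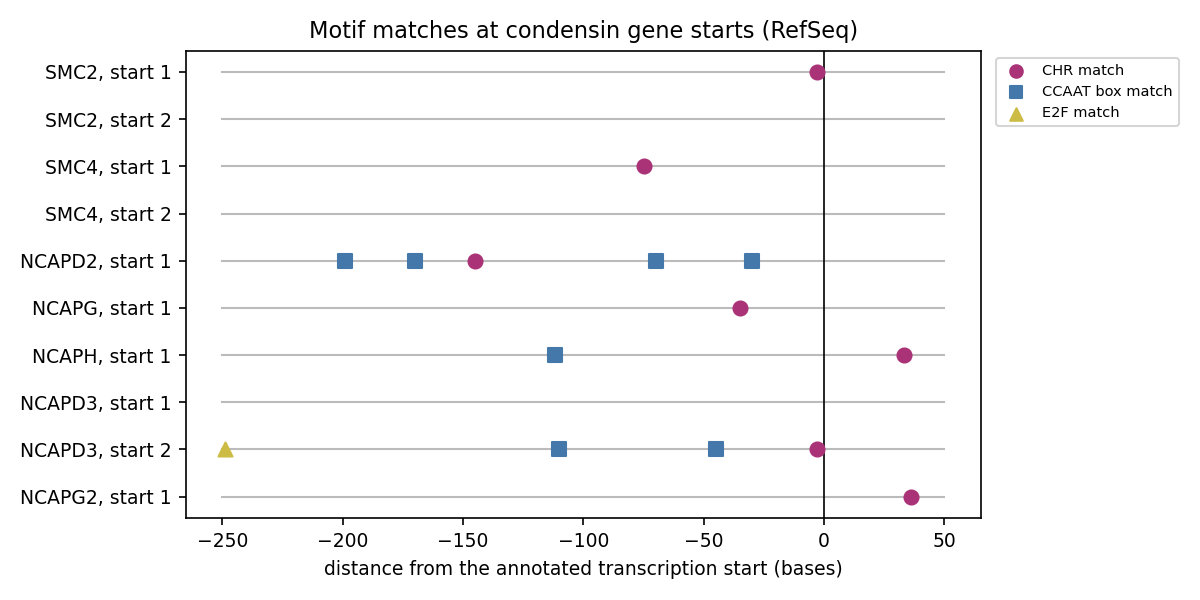
Position of each motif match, in bases from the annotated transcription start (horizontal axis), for the 10 RefSeq starts of 7 condensin genes (rows); circles are CHR matches, squares CCAAT boxes and the triangle an E2F match. Each gene has 1 CHR match, and 4 of the 7 CCAAT boxes belong to NCAPD2.

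The treatment was meant to mimic supplemental oxygen, and the question is which subunit transcripts differ after it. In hyperoxia, 2 of the 3 subunits that belong to condensin I alone fell: NCAPD2, by 22.5% in mean TPM, and NCAPG, by 12.4%. The kleisin NCAPH was 13.0% lower in mean but did not pass the test. None of the 3 condensin II subunits and neither SMC ATPase passed. Of all 14520 genes tested (mean of at least 1 TPM), 5.63% were called lower and 11.7% higher by limma on log2(TPM + 1) at a Benjamini-Hochberg adjusted p under 0.05, against 2 lower and 0 higher among the 8 subunits. At an unadjusted limma p under 0.05, 4 of the 8 were lower (NCAPH and NCAPD3 besides) and 0 higher, against 10.9% lower and 19.7% higher of all genes tested. The median log2 fold change of the 8 was -0.09, and that of all genes tested was 0.03.

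NCAPD2, the HEAT-repeat subunit of condensin I and the most abundant of the 8 in normoxia (ENSG00000010292), ran from 166 to 199.8 TPM in normoxia with a median of 175. In hyperoxia it ran from 123 to 151 TPM with a median of 141. Every hyperoxia sample lay below every normoxia sample. The means were 179 ± 12.6 and 139 ± 9.51 TPM (SD, n = 6 each), a log2 fold change of -0.36 (SE 0.05, limma, Benjamini-Hochberg adjusted p = 6.5e-04). Normoxia replicate 4 was the highest at 199.8 TPM and hyperoxia replicate 3 the lowest at 123 TPM. Without normoxia replicates 4 to 6 the log2 fold change of NCAPD2 was -0.31 (adjusted p = 0.0125).

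NCAPG, the other HEAT-repeat subunit of condensin I (ENSG00000109805), ran from 73.7 to 81.9 TPM with a median of 78.3 in normoxia, and from 64.7 to 72.6 TPM with a median of 68.2 in hyperoxia. Its groups did not overlap either, although the highest hyperoxia sample, at 72.6 TPM, lay close under the lowest normoxia sample. The log2 fold change was -0.19 (SE 0.04, limma, Benjamini-Hochberg adjusted p = 0.00545), and it was -0.23 (adjusted p = 0.0163) without normoxia replicates 4 to 6. Of the 8 subunits, 2 had every hyperoxia sample below every normoxia sample and 0 the reverse, against 2.58% and 6.2% of all genes tested.

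NCAPH, the condensin I kleisin (ENSG00000121152), ran from 59.0 to 73.4 TPM with a median of 62.3 in normoxia, and from 49.8 to 63.7 TPM with a median of 56.5 in hyperoxia. All 6 hyperoxia samples lay below the normoxia mean, but only 4 lay below every normoxia sample: replicate 1 reached 63.7 and replicate 4 59.7 TPM. The log2 fold change of -0.20 was as large as that of NCAPG, with a wider error (SE 0.07, 95% interval -0.35 to -0.05, limma, Benjamini-Hochberg adjusted p = 0.0633). NCAPH had the largest relative spread of the 8 in normoxia, with a coefficient of variation of 8.69%. Its call depended on the processing: it passed with trimmed-mean (TMM) scaling (adjusted p = 0.022) and without hyperoxia replicate 1 (adjusted p = 0.0336), and it was at -0.13 (adjusted p = 0.333) without normoxia replicates 4 to 6.

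**Figure D2:**
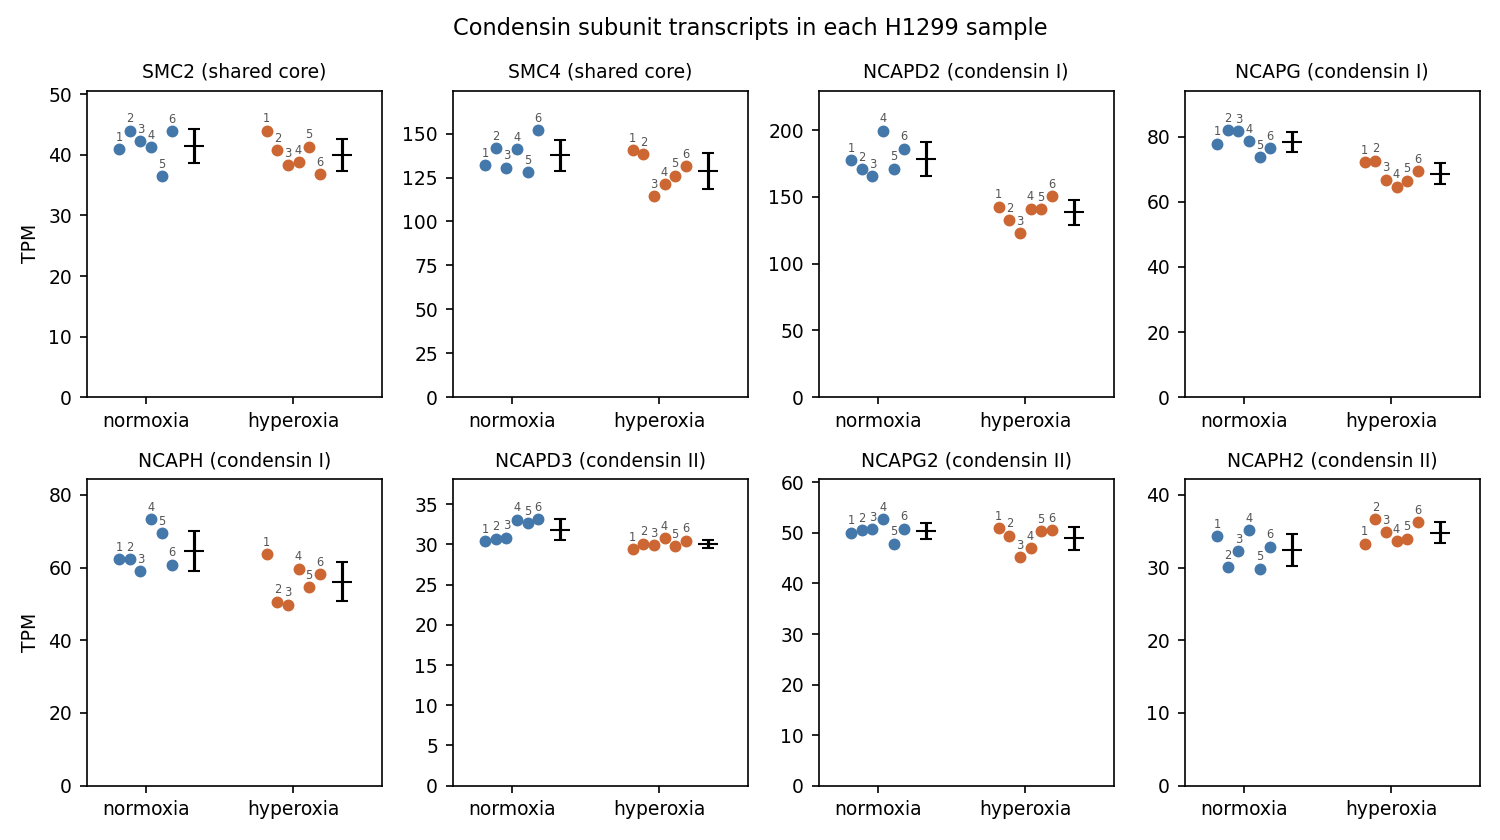
TPM (vertical axis, from 0) of each condensin subunit in the 6 normoxia (blue) and 6 hyperoxia (orange) samples; points are samples with their replicate numbers, and bars show mean and SD. The groups are apart for NCAPD2 and NCAPG and overlap for the other 6 subunits.

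The condensin II subunits moved less. NCAPD3, its HEAT-repeat counterpart of NCAPD2 (ENSG00000151503), ran from 30.5 to 33.2 TPM with a median of 31.8 in normoxia, and from 29.4 to 30.8 TPM with a median of 29.99 in hyperoxia. Its log2 fold change was -0.08 (SE 0.04, 95% interval -0.15 to -0.00, limma, Benjamini-Hochberg adjusted p = 0.15). Its normoxia values ran from 30.5 to 30.8 TPM in replicates 1 to 3 and from 32.7 to 33.2 TPM in replicates 4 to 6. Of the first 3, only replicate 3, at 30.84 TPM, lay above all hyperoxia samples, the highest of which was at 30.82 TPM. Without replicates 4 to 6 the log2 fold change of NCAPD3 was -0.03 (adjusted p = 0.683). The labels give no batch that separates these replicates.

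NCAPG2, the counterpart of NCAPG (ENSG00000146918), ran from 47.8 to 52.8 TPM with a median of 50.6 in normoxia, and from 45.3 to 50.9 TPM with a median of 49.9 in hyperoxia. The ranges overlapped nearly throughout, with a log2 fold change of -0.05 (SE 0.04, 95% interval -0.13 to 0.04, limma, Benjamini-Hochberg adjusted p = 0.462). That interval excludes the fall measured for NCAPD2.

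NCAPH2, the condensin II kleisin (ENSG00000025770), was the only member with a positive change. It ran from 29.8 to 35.1 TPM with a median of 32.6 in normoxia, and from 33.3 to 36.7 TPM with a median of 34.4 in hyperoxia. All 6 hyperoxia samples lay above the normoxia mean and 2 lay above every normoxia sample. The log2 fold change of 0.10 did not pass (SE 0.05, 95% interval -0.00 to 0.20, limma, Benjamini-Hochberg adjusted p = 0.17).

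The shared ATPases did not pass either. SMC4 (ENSG00000113810) ran from 128 to 152 TPM with a median of 137 in normoxia, and from 114 to 141 TPM with a median of 129 in hyperoxia. Its ranges overlapped widely, with 3 hyperoxia samples below all normoxia samples and a log2 fold change of -0.10 (SE 0.06, 95% interval -0.22 to 0.02, limma, Benjamini-Hochberg adjusted p = 0.263). SMC2 (ENSG00000136824) ran from 36.5 to 44.0 TPM with a median of 41.8 in normoxia, and from 36.8 to 44.0 TPM with a median of 39.8 in hyperoxia. Its ranges nearly coincided, with a log2 fold change of -0.05 (SE 0.05, 95% interval -0.17 to 0.06, limma, Benjamini-Hochberg adjusted p = 0.564).

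**Figure D3:**
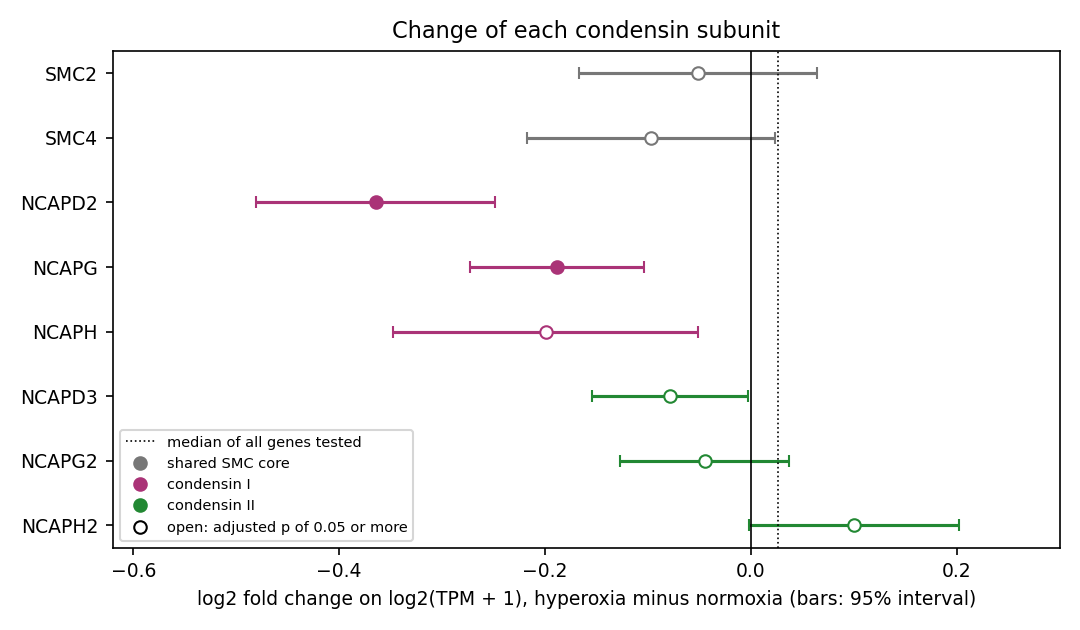
Log2 fold change of each subunit (horizontal axis, hyperoxia minus normoxia on log2(TPM + 1)) with its 95% interval from limma; colours give the complex, filled points passed the adjusted test, and the dotted line is the median of all genes tested. NCAPD2 at -0.36 and NCAPG at -0.19 are filled, and NCAPH2 at 0.10 is the only point above 0.

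Condensin I and condensin II have matching parts, so a ratio taken within a sample compares them nearly free of the scaling of that sample. The ratios printed are of TPM, and those tested had 1 added to each TPM. For 4 log2 ratios the groups were compared by exact permutation (two-sided, 924 arrangements), with Benjamini-Hochberg adjustment over the 4. The smallest p it can give is 0.00216. Without the added 1, the NCAPH to NCAPH2 difference was -0.31 instead of -0.30 (exact permutation, adjusted p = 0.0202). In all 3 pairs of condensin I over condensin II subunits the ratio was lower in hyperoxia.

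The ratio of NCAPD2 to NCAPD3 ran from 5.24 to 6.04 in normoxia with a median of 5.59, and from 4.11 to 4.94 in hyperoxia with a median of 4.66. The groups did not overlap, and the log2 ratio was lower by 0.29 (difference of -0.29, exact permutation p = 0.00216, adjusted p = 0.00433, n = 6 each). The ratio of NCAPG to NCAPG2 ran from 1.49 to 1.62 in normoxia with a median of 1.55, and from 1.32 to 1.48 in hyperoxia with a median of 1.40. These groups did not overlap either (difference of the log2 ratio -0.14, exact permutation p = 0.00216, adjusted p = 0.00433, n = 6 each).

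For the kleisins, the ratio of NCAPH to NCAPH2 ran from 1.81 to 2.33 in normoxia with a median of 1.96, and from 1.38 to 1.91 in hyperoxia with a median of 1.61. Hyperoxia replicate 1, at 1.91, was the only hyperoxia sample inside the normoxia range (difference of the log2 ratio -0.30, exact permutation p = 0.0152, adjusted p = 0.0202, n = 6 each). Without normoxia replicates 4 to 6 this difference was -0.24 and no longer passed (exact permutation, adjusted p = 0.127). Fewer samples also weaken the test. Even NCAPD2/NCAPD3 and NCAPG/NCAPG2, whose groups do not overlap, were at adjusted p = 0.0476 there (exact permutation). The ratio of SMC2 to SMC4 ran from 0.284 to 0.324 in normoxia and from 0.280 to 0.335 in hyperoxia, and did not differ beyond its spread (difference of the log2 ratio 0.05, exact permutation p = 0.364, adjusted p = 0.364, n = 6 each).

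**Figure D4:**
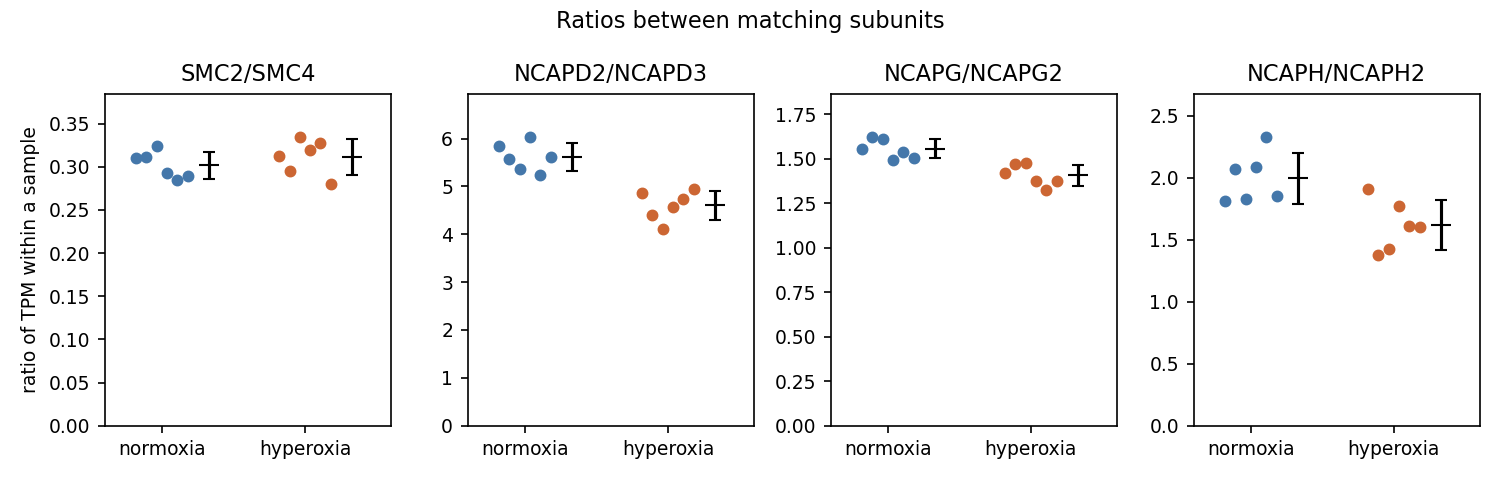
Ratio of TPM between matching subunits within each sample (vertical axes, from 0), with mean and SD, for 6 normoxia (blue) and 6 hyperoxia (orange) samples. The groups are apart for NCAPD2/NCAPD3 and NCAPG/NCAPG2, overlap by 1 hyperoxia sample for NCAPH/NCAPH2 and overlap throughout for SMC2/SMC4.

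Summed over its 3 own subunits, condensin I came to 322 ± 15.8 TPM under normoxia and 263 ± 14.7 TPM under hyperoxia, and condensin II 115 ± 3.87 and 114 ± 2.73 TPM (SD, n = 6 each). The sum of condensin I over that of condensin II was between 2.69 and 2.91 in the normoxia samples and between 2.18 and 2.45 in the hyperoxia samples. The sum of the 2 ATPases was 179 ± 11.1 and 169 ± 11.8 TPM (SD, n = 6 each). NCAPD2, at a mean of 179 TPM in normoxia and 139 TPM in hyperoxia, was the largest part of the condensin I sum and of its fall. These sums describe the members and were not tested.

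The levels kept a clear order within normoxia. NCAPD2 was highest, then SMC4 at 138 ± 8.93, NCAPG at 78.4 ± 3.18, NCAPH at 64.6 ± 5.61, NCAPG2 at 50.5 ± 1.58, SMC2 at 41.5 ± 2.78, NCAPH2 at 32.4 ± 2.16 and NCAPD3 at 31.8 ± 1.28 TPM (SD, n = 6 each). Only the last pair, NCAPH2 and NCAPD3, had overlapping ranges. In hyperoxia the same order held by mean, at 139, 129, 68.7, 56.1, 48.9, 40.0, 34.8 and 30.1 TPM. The ranges of NCAPD2 and SMC4 overlapped there, NCAPD2 being the higher in 5 of 6 samples, and so did those of NCAPH and NCAPG2. NCAPH2 and NCAPD3, which overlapped in normoxia, had separate ranges in hyperoxia. Transcripts of SMC2 stood at 0.302 of those of SMC4 in normoxia, although the proteins pair one to one in the complex.

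The authors' deposited table gives its own comparison, made per the submitters' notes with HTSeq counts and edgeR. In the authors' deposited table NCAPD2 had a log2 fold change of -0.44 (adjusted p = 6.79e-28, edgeR). The same authors' deposited table lists NCAPG at -0.23 (adjusted p = 6.54e-07, edgeR), NCAPH at -0.19 (adjusted p = 9.15e-06) and SMC4 at -0.18 (adjusted p = 4.56e-07). It also lists NCAPD3 at -0.08 (adjusted p = 0.0247, edgeR), SMC2 at -0.09 (0.219), NCAPG2 at -0.04 (0.338) and NCAPH2 at 0.03 (0.581). All 8 directions were those of the TPM fit, but the tests differed. The authors' adjusted p was under 0.05 for SMC4, NCAPH and NCAPD3 too, which did not pass in the TPM fit. SMC4 was at -0.18 there and at -0.10 in the TPM fit. The reason was not tested. The table's own column of calls marks none of the 8.

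Of 18 measured genes for kinases and other proteins that act with condensin on mitotic chromosomes, 13 fell, 0 rose and 5 did not pass, against 5.63% lower of all genes tested. Their median log2 fold change was -0.24, against 0.03 over all genes tested. TOP2A, the topoisomerase that untangles DNA beside condensin, fell from 139 ± 5.78 to 111 ± 5.52 TPM (log2 fold change -0.33, n = 6 each). KIF4A, the chromokinesin that works with condensin I, fell by 0.15 on the log2 scale. MKI67, which coats the surface of mitotic chromosomes, fell by 0.41. CCNB1, the cyclin that activates CDK1, fell by 0.33, and AURKA, a mitotic kinase, by 0.37. MCPH1, the inhibitor of condensin II, was at 8.32 ± 0.57 TPM in normoxia and 9.31 ± 0.91 TPM in hyperoxia and did not pass (log2 fold change 0.14, limma, Benjamini-Hochberg adjusted p = 0.164, n = 6 each).

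Of 27 other genes of G2 and M phase, 17 fell, 1 rose and 9 did not pass, with a median of -0.24. The shares over all genes tested were 5.63% lower and 11.7% higher. The 1 that rose was MYBL2, a partner of MuvB, at 0.12 (limma, Benjamini-Hochberg adjusted p = 0.0368). The spindle protein gene DLGAP5 fell by 0.37 and the kinesin gene KIF20A by 0.39 on the log2 scale. BUB1B is among the 17, but its deposited columns disagree with each other, and 16 of 26 fell without it. In bulk RNA, fewer cells in G2 and M phase and less RNA per such cell cannot be told apart, and this holds for NCAPD2 and NCAPG as well; the part of cell cycle phase in their fall was not tested.

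Genes of S phase went both ways, with 5 of 21 lower, 3 higher and 13 that did not pass (median -0.01). Of all genes tested, 5.63% were lower and 11.7% higher. MCM6 and MCM7, of the replicative helicase, fell by 0.30 and 0.28, and POLA1, the catalytic subunit of polymerase alpha, by 0.33. CDC6, RRM2 and CHAF1B rose by 0.26, 0.16 and 0.16. Of 19 genes of DREAM, E2F and NF-Y factors, whose complexes bind elements such as those printed above, only E2F6 passed. E2F6, a repressive member of its family, was at 0.17 (limma, Benjamini-Hochberg adjusted p = 0.0442). The median of the 19 was 0.04. The related genes MYBL2, LIN9 and LIN54 were counted with the other G2 and M phase genes instead. There MYBL2 rose by 0.12, and LIN9 (0.02) and LIN54 (0.06) did not pass. The DREAM scaffold gene LIN37 and the repressor E2F4 were at 0.01 and 0.05 and did not pass. These 2 genes lie outside the rule for named genes and were picked with their values in view.

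The other SMC complexes were described beside condensin, with 17.3% of all genes tested called in either direction. Of 18 genes of cohesin, the ring that holds sister chromatids together, and its regulators, 3 fell, 1 rose and 14 did not pass (median -0.02). STAG1, a cohesin subunit, fell from 15.0 ± 0.72 to 10.6 ± 1.14 TPM and the cohesin kleisin RAD21 from 143 ± 5.13 to 123 ± 3.92 TPM (SD, n = 6 each). PTTG1, the securin that restrains separase, fell by 0.15 on the log2 scale. The cohesin ATPases SMC1A and SMC3 were at 0.05 and 0.00 and did not pass. They too were picked with their values in view. Of 9 genes of the SMC5/6 complex, which acts in DNA repair, 2 rose, 1 fell and 6 did not pass (median -0.01). EID3 rose by 0.51 from 1.90 ± 0.53 TPM, SLF2 rose by 0.20, and NSMCE4A fell by 0.13 on the log2 scale.

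**Figure D5:**
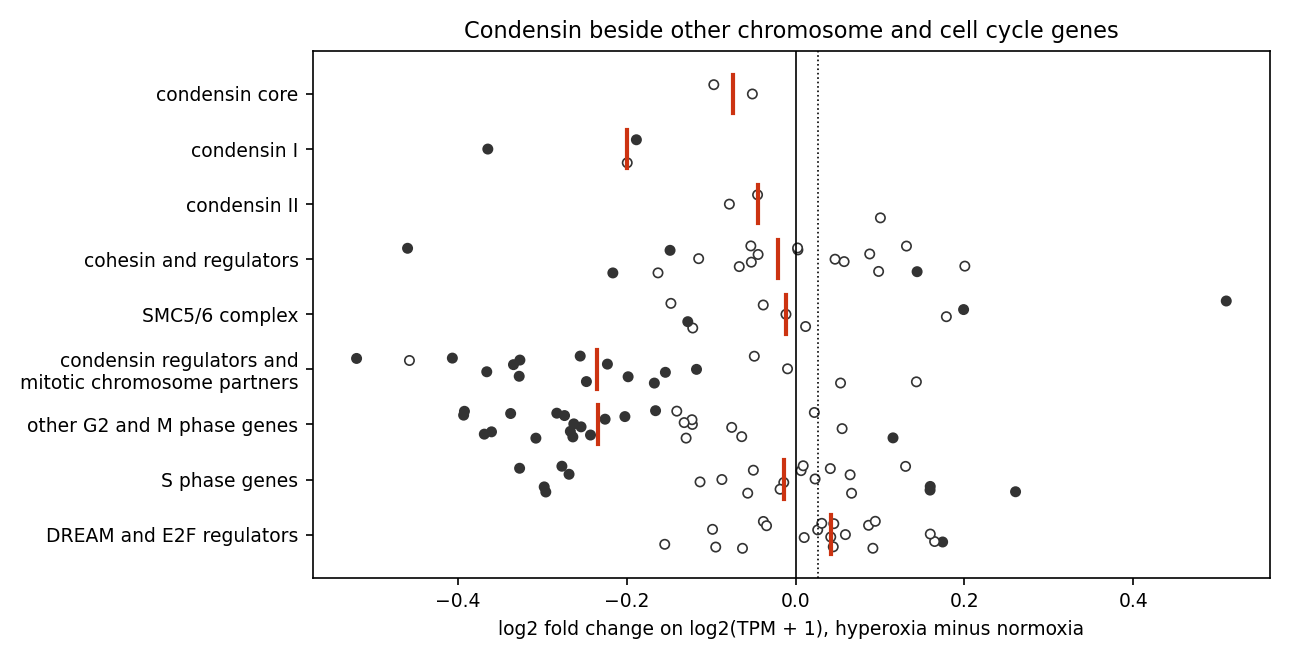
Log2 fold change (horizontal axis, hyperoxia minus normoxia on log2(TPM + 1)) of the genes in each list (rows); filled points passed the adjusted test, red bars are list medians, the dotted line is the median of all genes tested, and BUB1B is left out because its deposited columns disagree. The condensin I points lie between -0.36 and -0.19, among the mitotic genes, and the condensin II points between -0.08 and 0.10.

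The 8 subunits did not follow one profile. Over the 12 samples, the centred log2(TPM + 1) values of 2 subunits differed by a root mean square of 0.07, for NCAPD3 and NCAPG2, up to 0.25, for NCAPD2 and NCAPH2. The mean centred profile of the 8 was highest in normoxia replicate 4, at 0.14, and lowest in hyperoxia replicate 3, at -0.15. Of 8447 other genes with a mean of at least 10 TPM, those nearest to that mean profile were PTTG1IP (root mean square difference 0.02), KIF4A (0.03), RHOA (0.04), SCRN1 (0.04) and HNRNPF (0.04), against a median of 0.14 over those genes. The mean profile itself lay at 0.07 from a flat line, so a gene with flat values would also lie below that median. KIF4A went from 62.3 ± 2.43 to 55.9 ± 2.48 TPM and RHOA, a small GTPase, from 483 ± 9.08 to 447 ± 13.6 TPM (SD, n = 6 each).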

How the data were processed

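Total RNA of 12 H1299 samples was sequenced. The authors deposited TPM per gene and sample, with their group means in TPM, and, for their own test, a p-value before and after adjustment beside the fold change, given both as a ratio and in log2. These units are per the file headers; the table is named for another unit. The submitters' processing notes name HTSeq 0.9.1 and edgeR 3.16.5 and a mouse build (mm9), although all gene identifiers are human Ensembl ones. No aligner, annotation or TPM method is given in the sources used here. The labels name 2 makers' library kits, so strandedness is not settled. In 78 rows the deposited columns disagree with each other; no condensin subunit is among them, and these rows stayed in the test. A row with no gene was left out.

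Groups came from the sample titles. All 12 samples entered limma 3.58.1 (R 4.3.3; lmFit, eBayes with trend, two-sided) on log2(TPM + 1), for 14520 genes with a mean of at least 1 TPM, with Benjamini-Hochberg adjustment over all of them. The threshold was 0.05. Changes are on that log scale, which understates those of low genes. The depth behind TPM is unknown, so no counting intervals are given. The limma fit was tried on simulated data whose changes were larger than that of any subunit. Its power for changes as small as theirs was not tested. Ratios were tested by exact permutation (SciPy 1.17.1), with 1 added to each TPM. Sequences are from RefSeq (GRCh38.p14), searched on both strands. The members, lists and alternatives were chosen with earlier results of these data known. Named genes are the 8 subunits, up to 3 members of each other list with the smallest p, TOP2A, KIF4A, MCPH1 and MKI67, and the 5 genes nearest to the mean profile, of which some are left unnamed. Outside this rule, the cell markers, BUB1B, MYBL2, CDC6, RRM2, CHAF1B, LIN9 and LIN54 were picked for naming with their values in view. 1 gene of the partner list is not reported here. Alternatives were a pseudocount of 0.1, other filters, scalings (TMM factors were computed without count weights), variance settings and tests, a replicate block, and leaving out samples or the 78 rows.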

Additional observations from a re-analysis of the deposited data

How the results depend on the processing

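NCAPD2 and NCAPG passed as lower in all 25 alternatives run, at -0.40 to -0.31 and -0.23 to -0.17 on the log2 scale. Neither SMC ATPase, NCAPG2 nor NCAPH2 passed in any, and no subunit was called higher. NCAPH passed with a minimum mean of 5 TPM (-0.20), median-of-ratios scaling (-0.23), TMM (-0.23), quantile normalisation (-0.23), sample weights (-0.21) and the replicate block (-0.20); over the fits that left out 1 sample it ran from -0.24 to -0.16. Quantile normalisation also called NCAPD3 lower (-0.11), which brought the subunits called lower to 4. The genes called lower numbered 818, and 1277 with median-of-ratios scaling, 1258 with TMM, 515 by the exact rank-sum test and 375 without normoxia replicates 4 to 6, where 1000 were called higher against 1698. Lower genes were 32.5% of those called, and 49.96% with median-of-ratios and 49.0% with TMM scaling, which moved the median of all genes from 0.03 to -0.00 and 0.00.

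The labels do not state whether the shared replicate numbers pair the samples. Same-numbered samples' deviations from their group means correlated at -0.12 to 0.02, none best with its own number. Such correlations cannot exclude pairing by design. With the numbers as a replicate block, the ratio differences kept their values. The exact sign-flip test, whose smallest p is 0.0313, gave adjusted p = 0.0625 for NCAPD2/NCAPD3 (-0.29) and NCAPG/NCAPG2 (-0.14) and 0.0833 for NCAPH/NCAPH2 (-0.30). NCAPD2/NCAPD3 and NCAPG/NCAPG2 were both at that smallest p before adjustment. With no other ratio there, adjustment over the 4 could not bring them under 0.05. Without normoxia replicates 4 to 6, which also leaves a weaker test, the NCAPH/NCAPH2 difference was -0.24 and no longer passed. That of SMC2/SMC4 changed sign to -0.016. The cause was not tested.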
